A study of Sus scrofa with 24 samples.

Results

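The genes described are the growth factor families FGF, VEGF, IGF, EGF, angiopoietin and KIT as a pig expression array names them, with their receptors and binding proteins. Members were the array's probes, control spots left out, whose gene symbol begins with a family name such as FGF, PDGF, VEGF, IGF, EGF, HGF, ANGPT or KIT or is one of the related symbols HBEGF, AREG, EREG, FLT, MET or TEK. By the array's own names the rule found 33 symbols, on 52 of 43603 probes, and each symbol was represented by its brightest probe. The array had 6248 symbols when names from a reference table and an older annotation were included. By role these were 11 ligands, 8 receptors, 7 proteins that bind insulin-like growth factors, and 7 further matches, namely 6 angiopoietin-like genes and the RNA-binding protein IGF2BP2. The rule matched 0 PDGF or PDGFR symbols, and HGF, EREG and the other VEGF genes are not among its members either. Of the PDGF family only PDGFC, reached by another route, is described, at the end. Of the 33 members, 32 were well above background in at least 4 samples and were tested among 36140 probes.

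The study placed an arteriovenous haemodialysis graft, a conduit joining an artery to a vein, in pigs (Sus scrofa) and took total RNA of 3 vein sites at day 5 and day 14. The sites were the external jugular vein, which served as control, the venous anastomosis, where graft meets vein, and the vein downstream of the anastomosis. Each of the 6 groups (jugular, anastomosis and downstream vein, at day 5 and at day 14) had 4 samples, labelled as biological replicates 1 to 4, so 24 in all. Strain, age, sex and graft material are not given in the sources used here, nor whether the control vein came from a grafted animal or whether samples of the same number and day shared an animal.

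Growth factors of these families are secreted or membrane-bound proteins that bind receptor tyrosine kinases on neighbouring cells and so control the division, movement and survival of smooth muscle, endothelial and connective tissue cells. Insulin-like growth factors differ from the others in that a set of binding proteins holds them in the matrix and in blood and sets how much reaches the receptor IGF1R. In injured veins such factors are known for their part in the thickening of the inner wall that narrows haemodialysis grafts.

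Each probe is a stretch of 60 bases of a transcript, and the sequences show which part of a gene a value stands for. IGF2, which gave the largest change among the ligands, had 7 probes, and 4 of them lie in its coding sequence as overlapping pairs. They are shown because the pairs read different parts of the precursor. The first pair starts in the signal peptide, and the second lies in the tail that is cut off when the hormone matures. The capitals mark the 38 and 51 bases that the probes of a pair share.
IGF2 from transcript base 388: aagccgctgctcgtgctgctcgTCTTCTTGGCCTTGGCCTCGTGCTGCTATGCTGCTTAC
IGF2 from transcript base 410: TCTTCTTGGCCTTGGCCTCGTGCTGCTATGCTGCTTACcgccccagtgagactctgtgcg
IGF2 from transcript base 679: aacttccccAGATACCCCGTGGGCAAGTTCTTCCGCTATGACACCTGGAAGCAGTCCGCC
IGF2 from transcript base 688: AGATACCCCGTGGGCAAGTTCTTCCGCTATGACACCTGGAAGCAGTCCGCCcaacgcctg
FGFR2 is shown because its 2 probes gave different results. The probe from base 1032 reads the exon that forms the third immunoglobulin-like domain of the receptor form typical of epithelial cells, and the probe from base 2386 reads the end of the intracellular part. They share no stretch, so no letters are in capitals.
FGFR2 from transcript base 1032: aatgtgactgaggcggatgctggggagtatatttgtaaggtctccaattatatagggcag
FGFR2 from transcript base 2386: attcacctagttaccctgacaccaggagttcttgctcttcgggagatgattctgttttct
VEGFA is shown because its probes separate a part common to the main splice forms (base 366) from the heparin-binding part that the shortest of these forms lacks (base 462).
VEGFA from transcript base 366: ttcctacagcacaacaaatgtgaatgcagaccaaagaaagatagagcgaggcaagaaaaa
VEGFA from transcript base 462: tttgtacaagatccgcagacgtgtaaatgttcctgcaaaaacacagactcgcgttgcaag

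The samples were on 16 arrays of 2 colours, where Cy3 marked every jugular control and Cy5 every sample of the graft sites. In a comparison with the control within a day, site and dye cannot be told apart. Between 56.9% and 80.2% of the probes were well above background in a sample, and the number of arrays limits the precision. The authors' deposited value table correlated best with the matching scanner channel for the 18 samples of replicates 1 to 3 and for 0 of the 6 samples of replicate 4 (correlations of 0.029 to 0.462). The counts of members below are also given without replicate 4 where they change by over 1.5 times. Endothelial markers were well above background in all 24 samples (4 of 4 measured), as were 4 of 4 smooth muscle markers. The mean level of 6 adipocyte markers was 12.58 to 14.44 in 4 samples of day 14, namely jugular replicate 2, anastomosis replicate 3 and downstream replicates 2 and 4, against 7.85 to 10.87 in the other samples. Without these 4, jugular and anastomosis samples of day 14 share a number in replicates 1 and 4 only. Jugular and downstream samples then share one in replicates 1 and 3 only. Levels are normalised log2 intensities, differences are log2 values with the SE of limma's fit, and adjusted p-values are from limma with Benjamini-Hochberg adjustment over all probes tested.

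At the anastomosis on day 5, 10 of the 32 tested members rose and 6 fell against the jugular vein, which is 50% of the members where 20% of all probes were called (9.75% higher and 10.3% lower). The ligands AREG, IGF1 and ANGPT2, the receptors KIT, FGFR2 and FLT1, the binding protein IGFBP4 and the further matches ANGPTL2, ANGPTL6 and IGF2BP2 rose. The ligands IGF2 and EGF, the receptors FGFR1 and EGFR, and ANGPTL1 and ANGPTL7 fell. In 11 members the 4 anastomosis samples did not overlap with the 4 controls, beside 15.1% of all probes. The call held with each replicate left out in turn for 8 of the 16: ANGPTL1, IGF2, AREG, IGFBP4, IGF1, ANGPT2, FGFR1 and EGFR. Of these, AREG and IGFBP4 did not pass when samples were not paired by number. Median centring in place of loess gave 14 higher and 5 lower, where it called 38.4% of all probes.

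Downstream of the anastomosis on day 5, 5 members rose (ANGPT2, IGF1, AREG, IGFBP4 and ANGPTL6) and 2 fell (IGF2 and ANGPTL7), beside 8.37% of all probes called (3.4% higher and 4.98% lower). For 6 members the groups did not overlap, beside 7.78% of all probes. None of the 8 receptors passed (4 had an unadjusted p under 0.05, as did 25.2% of all probes), and the lowest adjusted p among them was 0.0513, for EGFR. The count changed when single replicates were left out. Without replicate 1 it was 10, without replicate 2 it was 1, and without replicate 3 or 4 it was 0. With 1 replicate left out in turn, the fitted differences ran from 1.44 to 1.93 for ANGPT2 and from -2.1 to -1.65 for IGF2. The shares of all probes called in these smaller fits are not given, so a loss of calls over the whole array cannot be told apart. Median centring gave 9 higher and 1 lower, where it called 22.8% of all probes. No background correction gave 6 and 4 (11% of all probes), and the authors' deposited table gave 8 and 5 (20.2%).

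On day 14 at the anastomosis, 6 members rose (IGF1, IGFBP4, KIT, ANGPT2, FLT1 and FGFR2) and ANGPTL7 fell, beside 8.87% of all probes called (4.77% higher and 4.1% lower). For IGF1, FGFR2 and ANGPTL7, 3 members, the groups did not overlap, beside 6.1% of all probes. Without replicate 4 the count was 0, without replicate 3 it was 3, and without replicate 2 it was 4. The shares of all probes called in these smaller fits are not given. Single-channel quantiles and the authors' deposited table each gave 5 higher and 2 lower (9.89% and 11.3% of all probes called). Downstream on day 14 only ANGPT2 rose, beside 0.913% of all probes called (0.645% higher and 0.268% lower). Only IGF1R did not overlap between these groups, beside 1.95% of all probes. Without replicate 2, 3 or 4, 0 members passed (share of all probes not given). The processed signals gave 0 higher and 1 lower there (0.625% of all probes), and median centring gave 7 higher and 2 lower, where it called 23.4% of all probes.

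**Figure D1:**
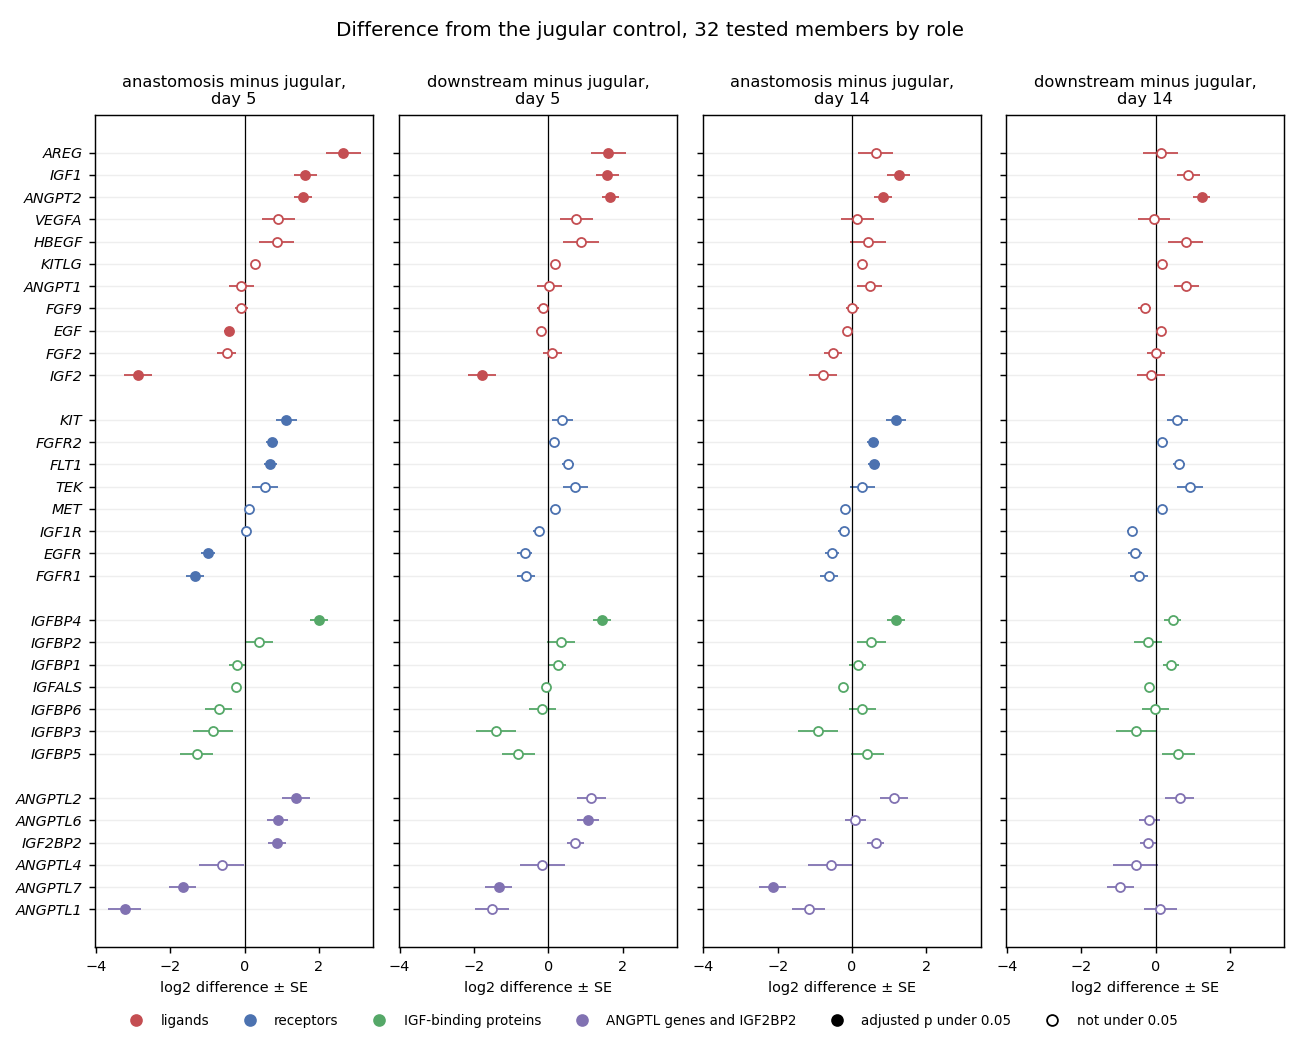
Log2 difference from the jugular control (x axis, with SE bars) for the 32 tested members (y axis), in 4 panels for the anastomosis and the downstream vein at day 5 and day 14. Filled points passed the threshold of 0.05 on the adjusted p: 16, 7, 7 and 1 members from left to right, and IGF2, ANGPTL1 and AREG lie farthest from 0 at the anastomosis on day 5.

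In the IGF family the ligands moved in opposite directions. IGF2, a growth factor of fetal and mesenchymal tissue that acts through IGF1R, stood at 14.52, 14.43, 16.68 and 16.37 in the day 5 jugular samples of replicates 1 to 4 and at 11.32, 11.05, 14.11 and 14.05 at the anastomosis. The groups did not overlap, and all 4 anastomosis samples lay below the control of their own number, with differences of -3.38 to -2.32. IGF2 fell by 2.87 ± 0.37 on the log2 scale, a 7.29-fold difference (adjusted p = 0.000535). Downstream on day 5 its values were 13.65, 12.22, 14.66 and 14.3, between the control and the anastomosis of the same number in 4 of 4 cases. That fall was 1.79 ± 0.37 (adjusted p = 0.014), and it did not pass without replicate 2, 3 or 4 (adjusted p up to 0.124).

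On day 14 the IGF2 values of the anastomosis (12.89, 14.82, 16.35 and 14.55) overlapped with those of the jugular vein (13.97, 15.3, 16.17 and 16.29). The difference was -0.78 ± 0.37 (adjusted p = 0.209). Without the 4 samples high in adipocyte markers it was -1.53 and passed (adjusted p = 0.0329). That fit keeps jugular and anastomosis pairs of replicates 1 and 4 only. Downstream the day 14 values were 14.55, 14.8, 15.64 and 16.23, with a difference from the control of -0.13 ± 0.37 (adjusted p = 0.911). The change of the anastomosis difference between the days was 2.09 ± 0.53, and that of the downstream difference 1.67 ± 0.53. Neither passed over all probes (adjusted p = 0.364 and 0.65, unadjusted p = 0.00133 and 0.00665). In the authors' deposited values, whose replicate 4 did not correlate best with its own scanner channels, the first was 2.22 with an adjusted p of 0.0459.

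All 7 IGF2 probes fell at the anastomosis on day 5. Their differences ran from -2.87 to -1.46, and the adjusted p from 0.000535 to 0.0163. Those printed above fell by 1.46 and 1.64 (signal peptide) and by 2.1 and 2.33 (precursor tail). Downstream 4 of the 7 passed, with differences from -1.79 to -0.97 over all 7.

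IGF1, the growth factor that mediates much of the action of growth hormone and is made by macrophages and mesenchymal cells, stood at 9.15, 8.86, 8.65 and 9.01 in the day 5 controls. It stood at 9.94, 10.33, 10.55 and 11.34 at the anastomosis and at 9.7, 10.62, 10.85 and 10.81 downstream. Both graft sites lay above the controls without overlap. IGF1 rose by 1.63 ± 0.31 at the anastomosis (3.09-fold, adjusted p = 0.0026) and by 1.58 ± 0.31 downstream (adjusted p = 0.0113). At day 14 the controls were at 9.54, 9.85, 8.94 and 9.12, the anastomosis at 10.13, 10.85, 11.42 and 10.04, and the downstream vein at 9.78, 10.85, 9.92 and 10.38. The anastomosis was again above every control, with a rise of 1.25 ± 0.31 (adjusted p = 0.0237), which became 0.85 (adjusted p = 0.125) without the samples high in adipocyte markers. Downstream the difference was 0.87 ± 0.31 (adjusted p = 0.195). Its probes disagreed in size: at the anastomosis on day 5 the others gave 0.82 ± 0.26 (adjusted p = 0.038) and 0.14 ± 0.23 (adjusted p = 0.751). Neither of these passed downstream on day 5 (0.72 and 0.2, adjusted p = 0.0966 and 0.629) or at the anastomosis on day 14 (0.67 and 0.19, adjusted p = 0.122 and 0.666).

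The receptor IGF1R stood at 8.04, 7.91, 7.66 and 7.42 in the day 5 controls and at 8.55, 7.76, 7.48 and 7.33 at the anastomosis, a difference of 0.03 ± 0.14 (adjusted p = 0.937). Downstream on day 14 it was at 7.13, 7.1, 6.85 and 7.03 against 7.95, 7.5, 7.48 and 7.76 in the controls. The groups did not overlap, and the difference of -0.64 ± 0.14 was just short of the threshold (adjusted p = 0.0526). It passed under 5 alternatives, among them no background correction (-0.74, adjusted p = 0.0405) and the authors' deposited values (-1.13, adjusted p = 0.0206).

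Of the 7 binding proteins only IGFBP4 passed in any comparison. IGFBP4, which binds both ligands, stood at 10.4, 10.03, 11.72 and 11.67 in the day 5 controls, at 12.52, 11.95, 13.06 and 14.26 at the anastomosis, and at 10.93, 11.81, 13.06 and 13.83 downstream. Every anastomosis sample was above every control. IGFBP4 rose by 2 ± 0.24 at the anastomosis, the lowest adjusted p of the members (0.000407), and by 1.45 ± 0.24 downstream (adjusted p = 0.00608). Without pairing by number neither rise passed (adjusted p = 0.0674 and 0.368). On day 14 it was at 10.19, 10.44, 11.63 and 11.22 in the controls and at 11.16, 11.57, 13 and 12.5 at the anastomosis. The groups overlapped, but each pair differed by 0.97 to 1.37, and the rise was 1.19 ± 0.24 (adjusted p = 0.00972). The day 14 rise did not pass without replicate 4 (adjusted p = 0.0949) or without pairing by number (adjusted p = 0.499).

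The other binding proteins did not pass. IGFBP5, a matrix-bound form, differed by -1.29 ± 0.44 at the anastomosis on day 5 (adjusted p = 0.0525) and by 0.41 ± 0.44 on day 14. Its day 5 controls spread from 9.77 to 13.45. IGFBP3, the main carrier in blood, differed by -0.86 ± 0.54 at the anastomosis and by -1.41 ± 0.54 downstream on day 5 (adjusted p = 0.312 and 0.117). IGFBP6, which prefers IGF2, differed by -0.7 ± 0.37 at the anastomosis on day 5 and IGFBP2 by 0.38 ± 0.38. IGFBP1 and IGFALS, which the liver makes for the circulation, differed by -0.21 ± 0.22 and -0.23 ± 0.09. The other IGFBP1 probe was not well above background in at least 4 samples and was not tested.

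In the EGF family a ligand rose while the receptor fell. Amphiregulin (AREG), a ligand of EGFR shed from the cell surface, stood at 8.57, 7.65, 6.76 and 7.39 in the day 5 controls, at 12.45, 11, 8.78 and 8.73 at the anastomosis, and at 10.02, 9.58, 8.15 and 9.03 downstream. All 4 anastomosis samples exceeded all controls, by 3.88 and 3.36 within replicates 1 and 2 and by 2.02 and 1.33 within replicates 3 and 4. AREG rose by 2.65 ± 0.47 at the anastomosis (6.27-fold, adjusted p = 0.00183) and by 1.61 ± 0.47 downstream (adjusted p = 0.048). The downstream rise did not pass without replicate 2, 3 or 4. Without pairing by number neither rise passed (adjusted p = 0.0576 and 0.48). In the day 14 samples the controls were at 7.66, 9.62, 6.47 and 6.73, the anastomosis at 9.15, 8.96, 6.76 and 8.18, and the downstream vein at 6.79, 9.47, 6.95 and 7.8. The highest control was the sample with the highest adipocyte marker level. The difference at the anastomosis was 0.64 ± 0.47 (adjusted p = 0.437), and its change from day 5 was -2.01 ± 0.66 (adjusted p = 0.415).

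EGFR, the receptor of these ligands, stood at 12.99, 12.37, 12.69 and 12.99 in the day 5 controls and at 11.8, 11.72, 11.7 and 11.87 at the anastomosis. The groups did not overlap, and EGFR fell by 0.99 ± 0.19 (adjusted p = 0.00275). The other probe fell by 1.09 ± 0.17. Downstream the day 5 values were 12.45, 11.99, 11.89 and 12.15. The difference of -0.64 ± 0.19 missed the threshold on the brighter probe (adjusted p = 0.0513), and the other probe passed with -0.91 ± 0.17 (adjusted p = 0.00979). By day 14 the difference was -0.54 ± 0.19 at the anastomosis and -0.56 ± 0.19 downstream (adjusted p = 0.0883 and 0.179). The other probe passed at the anastomosis (-0.73 ± 0.17, adjusted p = 0.0186) and not downstream (-0.75 ± 0.17, adjusted p = 0.0545).

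HBEGF, the heparin-binding ligand of EGFR, stood at 12.11, 11.5, 11.17 and 12.33 in the day 5 controls, at 13.6, 12.53, 12.11 and 12.32 at the anastomosis, and at 13.62, 12.29, 11.78 and 12.92 downstream. The differences were 0.86 ± 0.48 and 0.88 ± 0.48 (adjusted p = 0.246 and 0.277). On day 14 the controls were at 11.5, 14.16, 11.13 and 11.11 and the anastomosis at 13.06, 12.99, 10.87 and 12.71. The high control and the low anastomosis sample are among the 4 samples high in adipocyte markers. The difference was 0.43 ± 0.48 (adjusted p = 0.638), and without those 4 samples it was 1.84 (adjusted p = 0.0158). The second value rests on a fit with jugular and anastomosis pairs of replicates 1 and 4 only. EGF itself stood at 7.39, 7.36, 6.95 and 7.1 in the day 5 controls and at 6.97, 6.76, 6.64 and 6.73 at the anastomosis, a fall of 0.43 ± 0.12 (adjusted p = 0.0248) that did not pass without replicate 2, 3 or 4.

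Among the angiopoietins, which act on the endothelial receptor TEK (TIE2), the ligand ANGPT2 rose in all 4 comparisons with the control. ANGPT2, which endothelial cells release and which loosens vessel walls, stood at 9.62, 10.11, 9.29 and 9.11 in the day 5 controls, at 11.73, 11.28, 10.82 and 10.52 at the anastomosis, and at 11.98, 10.97, 10.63 and 11.22 downstream. Neither graft site overlapped with the control. ANGPT2 rose by 1.56 ± 0.24 at the anastomosis (adjusted p = 0.00102) and by 1.67 ± 0.24 downstream (adjusted p = 0.00406). At day 14 the controls were at 10.69, 9.82, 9.21 and 9.32, the anastomosis at 10.57, 10.94, 10.56 and 10.3, and the downstream vein at 11.63, 11.43, 10.33 and 10.58. The groups overlapped through replicate 1 of the control. The rises were 0.83 ± 0.24 (adjusted p = 0.047) and 1.23 ± 0.24 (adjusted p = 0.0321), and neither passed without the samples high in adipocyte markers (0.42 and 1.17, adjusted p = 0.455 and 0.129).

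ANGPT1, the ligand that activates TEK and stabilises vessels, stood at 8.22, 8.12, 7.43 and 7.45 in the day 5 controls and at 8.62, 7.4, 7.28 and 7.57 at the anastomosis, a difference of -0.09 ± 0.34 (adjusted p = 0.907). In the day 14 samples the differences were 0.47 ± 0.34 at the anastomosis and 0.82 ± 0.34 downstream (adjusted p = 0.443 and 0.276). TEK stood at 10.07, 9.81, 9.68 and 9.69 in the day 5 controls, at 10.05, 10.29, 10.81 and 10.32 at the anastomosis, and at 11.27, 10.08, 10.31 and 10.53 downstream. The downstream samples were all above the controls. Its differences were 0.55 ± 0.34 and 0.73 ± 0.34 (adjusted p = 0.297 and 0.193). A further TEK probe, named through a reference table and outside the rule, gave 0.52 ± 0.14 downstream on day 5 and passed (adjusted p = 0.0342). It did not pass at the anastomosis on day 5 (0.36, adjusted p = 0.0813) or on day 14 (0.3 and 0.43, adjusted p = 0.194 and 0.157).

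**Figure D2:**
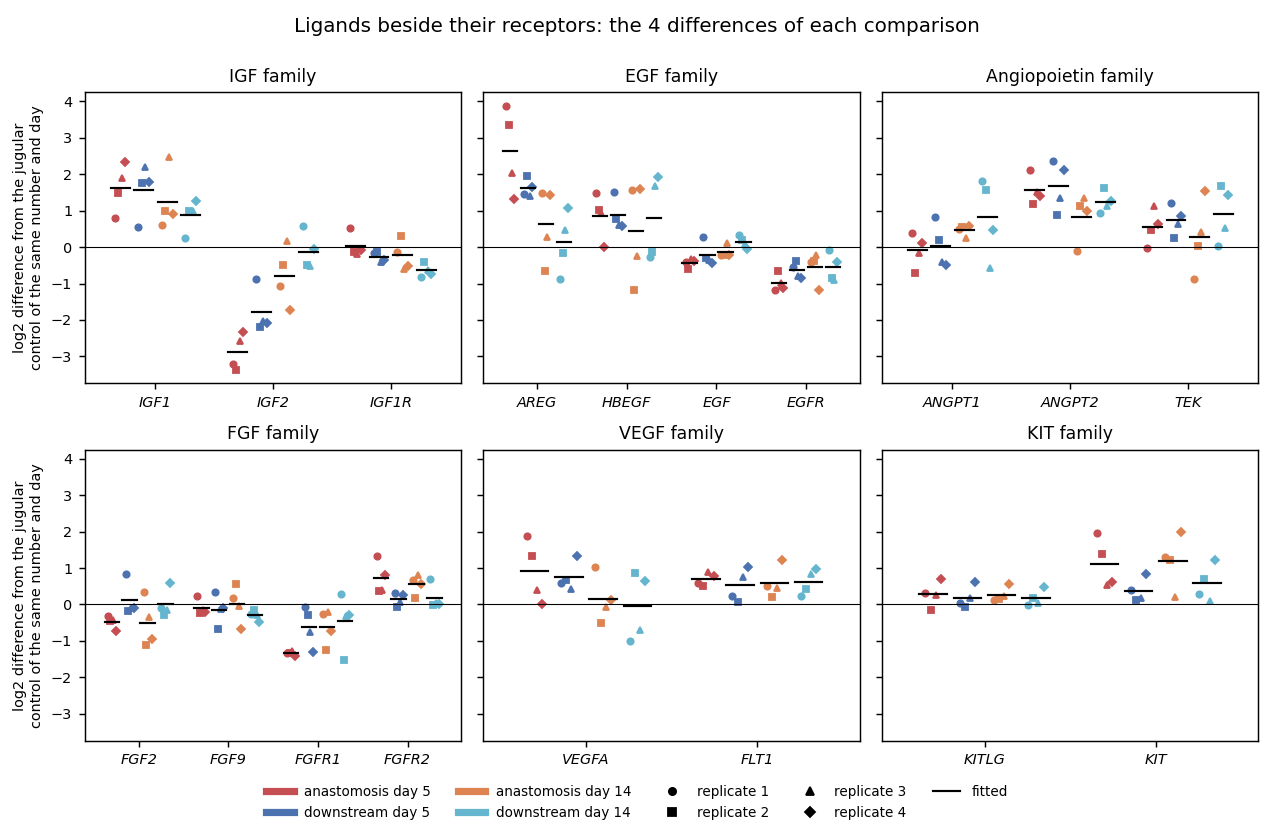
Log2 difference of each sample from the jugular control of its own number and day (y axis; 4 marks for replicates 1 to 4, black line for the fitted difference) for ligands and receptors of 6 families. IGF1 and IGF2 lie on opposite sides of 0 at day 5, AREG lies above 0 and EGFR below it, and all 4 ANGPT2 marks lie above 0 in 3 of the 4 comparisons.

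Neither FGF ligand that the rule matched, FGF2 or FGF9, passed, and the receptors moved in opposite directions. FGFR1, the main FGF receptor of mesenchymal cells, stood at 13.63, 13.85, 14.18 and 14.35 in the day 5 controls, at 12.29, 12.53, 12.91 and 12.94 at the anastomosis, and at 13.57, 13.56, 13.43 and 13.04 downstream. Both graft sites lay below all controls. FGFR1 fell by 1.34 ± 0.24 at the anastomosis (adjusted p = 0.00197), with pair differences of only -1.41 to -1.27. Downstream the difference was -0.61 ± 0.24 (adjusted p = 0.129). The other FGFR1 probe gave -0.29 ± 0.12 at the anastomosis and did not pass (adjusted p = 0.0946). By day 14 the controls were at 13.43, 14.72, 14.08 and 14.2 and the anastomosis at 13.17, 13.47, 13.87 and 13.46, a difference of -0.62 ± 0.24 (adjusted p = 0.122).

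FGFR2, best known as a receptor of epithelial cells, stood at 7.11, 7.39, 7.25 and 6.78 in the day 5 controls and at 8.43, 7.76, 7.66 and 7.6 at the anastomosis. The groups did not overlap, and FGFR2 rose by 0.73 ± 0.16 (adjusted p = 0.0054), which did not pass without replicate 4 (adjusted p = 0.0687). Downstream it was at 7.41, 7.31, 7.33 and 7.04, a difference of 0.14 ± 0.16. On day 14 the controls were at 6.69, 7.18, 7.21 and 6.81 and the anastomosis at 7.37, 7.37, 8.02 and 7.38, a rise of 0.56 ± 0.16 (adjusted p = 0.0399). The value of 8.02 belongs to replicate 3, which is high in adipocyte markers, and without such samples the difference was 0.54 (adjusted p = 0.116). These values are of the probe in the intracellular end printed above. The probe in the exon of the epithelial form gave 0.06 ± 0.07 on day 5 (adjusted p = 0.666) and was well above background in 10 of 24 samples.

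Basic fibroblast growth factor (FGF2), a mitogen of smooth muscle, stood at 8.91, 8.82, 9.74 and 10.03 in the day 5 controls and at 8.6, 8.37, 9.31 and 9.31 at the anastomosis. The difference was -0.48 ± 0.25, below 0 in 4 of 4 pairs, and did not pass (adjusted p = 0.208). FGF9 differed by -0.09 ± 0.17 at the anastomosis on day 5, and its differences in the other comparisons with the control ran from -0.3 to 0.01.

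For the VEGF family the array names VEGFA and the receptor FLT1 (VEGFR1) by the rule. VEGFA, the main growth signal of endothelial cells, stood at 8.97, 8.16, 9.1 and 9.73 in the day 5 controls, at 10.85, 9.49, 9.49 and 9.75 at the anastomosis, and at 9.56, 8.82, 9.52 and 11.05 downstream. The anastomosis was higher by 1.88 and 1.33 in replicates 1 and 2 and by 0.4 and 0.02 in replicates 3 and 4. The differences of 0.91 ± 0.44 and 0.75 ± 0.44 did not pass (adjusted p = 0.179 and 0.318). The probe in the heparin-binding part gave 1.11 ± 0.42 at the anastomosis (adjusted p = 0.078). At day 14 the difference was 0.14 ± 0.44 at the anastomosis and -0.05 ± 0.44 downstream.

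FLT1 stood at 7.26, 7.35, 7.12 and 7.14 in the day 5 controls, at 7.84, 7.87, 8 and 7.94 at the anastomosis, and at 7.49, 7.43, 7.88 and 8.18 downstream. Both graft sites lay above all controls. FLT1 rose by 0.69 ± 0.17 at the anastomosis (adjusted p = 0.0105), which did not pass without replicate 3 (adjusted p = 0.0809), and differed by 0.53 ± 0.17 downstream (adjusted p = 0.0664). In the day 14 samples the controls were at 7, 7.52, 7.58 and 6.47 and the anastomosis at 7.5, 7.72, 8.03 and 7.7, a rise of 0.59 ± 0.17 (adjusted p = 0.0422) that did not pass without replicate 1, 3 or 4. A further FLT1 probe outside the rule rose by 0.52 ± 0.11 at the anastomosis and by 0.48 ± 0.11 downstream on day 5 (adjusted p = 0.00522 and 0.022). It did not pass on day 14, with 0.24 ± 0.11 and 0.31 ± 0.11 (adjusted p = 0.192 and 0.2).

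KIT, the receptor of stem cell factor, found on mast cells and on progenitor cells, rose at the anastomosis on both days. It stood at 12.26, 12.98, 12.08 and 11.14 in the day 5 controls and at 14.21, 14.37, 12.62 and 11.76 at the anastomosis. The groups overlapped, but each anastomosis sample was above its own control, by 1.95 and 1.39 in replicates 1 and 2 and by 0.53 and 0.62 in replicates 3 and 4. The rise was 1.12 ± 0.28 (adjusted p = 0.0119) and did not pass without replicate 1 or 2 (adjusted p up to 0.104). By day 14 the controls were at 12.19, 12.26, 11.87 and 10.01 and the anastomosis at 13.5, 13.49, 12.07 and 12, a rise of 1.18 ± 0.28 (adjusted p = 0.0206). The day 14 rise did not pass without replicate 1, 2 or 4 (adjusted p up to 0.148). The other KIT probe gave 1.24 ± 0.31 on day 5 (adjusted p = 0.0119) and 0.89 ± 0.31 on day 14 (adjusted p = 0.0866). The mast cell markers MS4A2 and FCER1A, the high-affinity IgE receptor chains, differed by -0.43 ± 0.23 and -0.15 ± 0.21 at the anastomosis on day 5 (adjusted p = 0.227 and 0.7). Downstream KIT differed by 0.38 ± 0.28 on day 5 and 0.58 ± 0.28 on day 14. Its ligand KITLG was well above background in 2 of 4 samples of each group and stood at 5.98, 6.28, 6.4 and 6.41 in the day 5 controls and at 6.29, 6.14, 6.65 and 7.1 at the anastomosis (0.28 ± 0.12, adjusted p = 0.116).

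MET, the receptor of hepatocyte growth factor, stood at 6.93, 7.27, 7.01 and 7.02 in the day 5 controls and at 7.09, 7.27, 7.33 and 7.06 at the anastomosis. The difference was 0.13 ± 0.13 (adjusted p = 0.592), and those in the other comparisons with the control ran from -0.18 to 0.18.

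**Figure D3:**
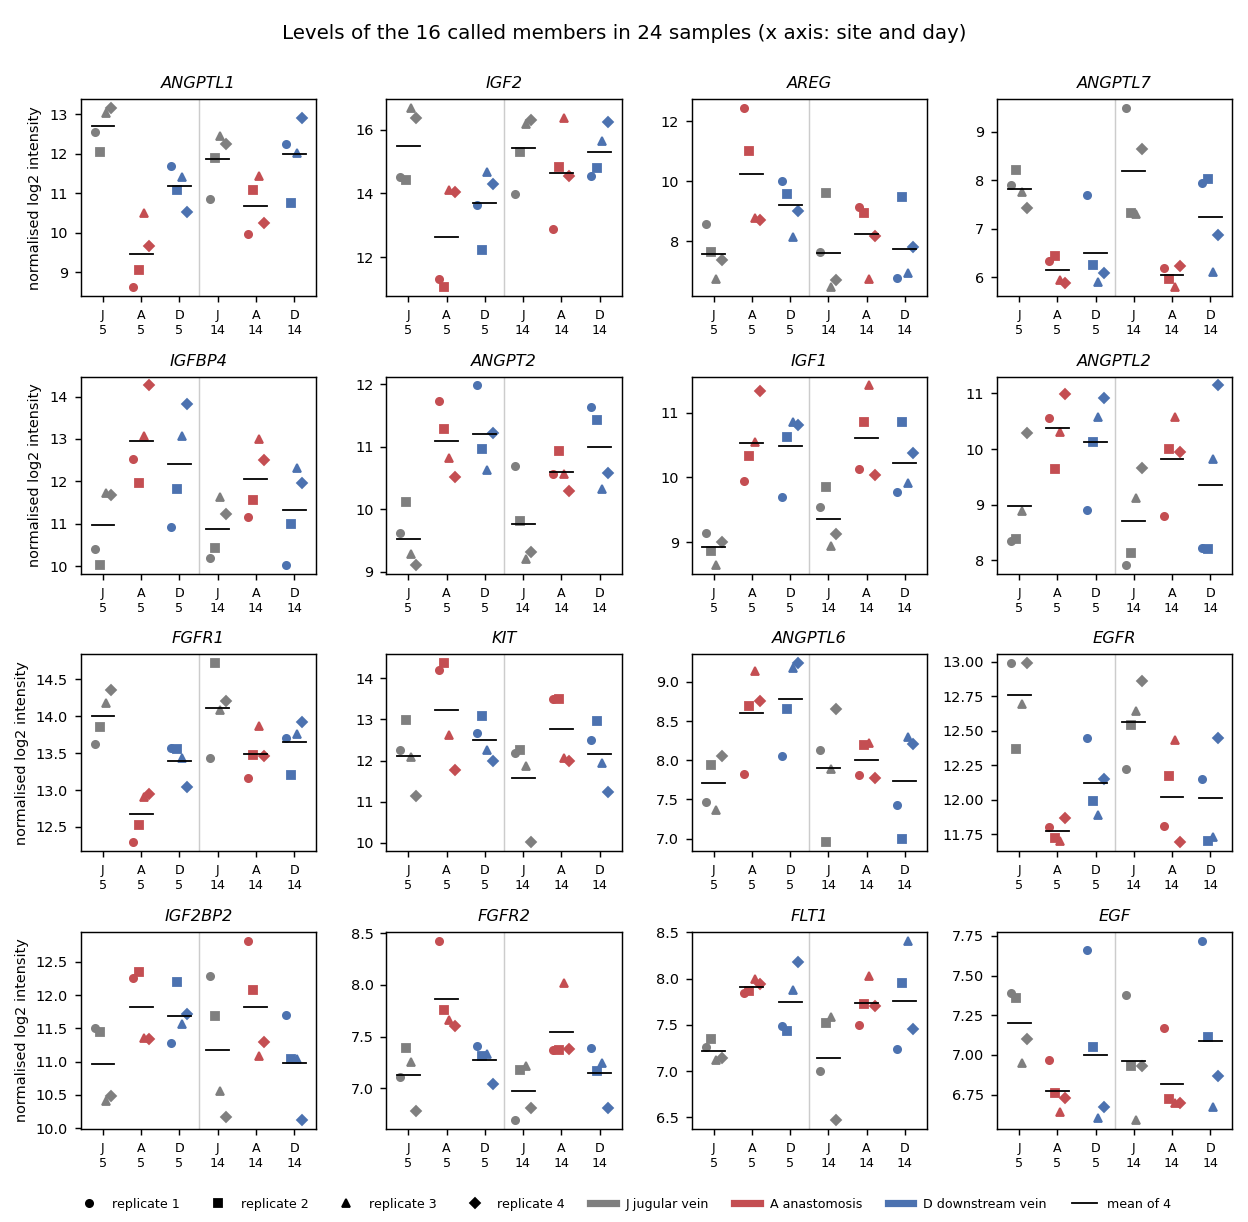
Normalised log2 intensity (y axis, a scale of its own in each panel) of the 16 members that passed in at least 1 comparison, in the jugular vein (J), anastomosis (A) and downstream vein (D) at days 5 and 14; marks stand for replicates 1 to 4 and lines for the mean of 4. At day 5 the anastomosis samples of IGF2, ANGPTL1 and FGFR1 lie below all controls, and those of IGF1, ANGPT2 and AREG above all controls.

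The angiopoietin-like genes carry the fold of the angiopoietins but do not act through TEK. ANGPTL1 had the largest difference of all members. It stood at 12.54, 12.05, 13.02 and 13.16 in the day 5 controls, at 8.62, 9.07, 10.51 and 9.66 at the anastomosis, and at 11.69, 11.08, 11.41 and 10.53 downstream. Neither site overlapped with the control, and ANGPTL1 fell by 3.23 ± 0.45 at the anastomosis (9.37-fold, adjusted p = 0.000641). Downstream the difference of -1.52 ± 0.45 was at the threshold (adjusted p = 0.0504). On day 14 the anastomosis was at 9.97, 11.09, 11.43 and 10.26 against 10.86, 11.9, 12.45 and 12.25, a difference of -1.17 ± 0.45 (adjusted p = 0.116).

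ANGPTL7 stood at 7.91, 8.21, 7.75 and 7.43 in the day 5 controls and at 6.34, 6.43, 5.95 and 5.88 at the anastomosis, where 0 of 4 samples were well above background. Set against the lowest signal well above background in each dim sample, or the sample's own value where that was higher, ANGPTL7 was at least 3.19-fold lower (means of 6.15 and 7.82, adjusted p = 0.00668). It did not pass without replicate 4 (adjusted p = 0.0572). Downstream on day 5 it was at 7.7, 6.25, 5.9 and 6.09, with 2 of 4 samples well above background, and fell by 1.34 ± 0.37 (adjusted p = 0.0414). At day 14 the anastomosis was at 6.18, 5.97, 5.79 and 6.24, with 2 of 4 samples well above background, against 9.49, 7.32, 7.31 and 8.64 in the controls. The groups did not overlap, and ANGPTL7 fell by 2.14 ± 0.37 (adjusted p = 0.00546), with an adjusted p of 0.0909 without replicate 4.

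ANGPTL2, an inflammatory member of the group, stood at 8.35, 8.39, 8.88 and 10.28 in the day 5 controls and at 10.55, 9.64, 10.3 and 10.98 at the anastomosis. Each sample was above its own control, and the rise was 1.39 ± 0.38 (adjusted p = 0.0194), which did not pass without replicate 1 or 3 (adjusted p up to 0.109). ANGPTL6 was at 7.47, 7.94, 7.37 and 8.05 in the day 5 controls, 7.83, 8.69, 9.14 and 8.75 at the anastomosis and 8.05, 8.65, 9.18 and 9.24 downstream. It rose by 0.89 ± 0.29 and 1.07 ± 0.29 (adjusted p = 0.0409 and 0.0354). The first did not pass without any 1 of the 4 replicates. IGF2BP2, which binds IGF2 messenger RNA, was at 11.51, 11.44, 10.4 and 10.48 in the day 5 controls and at 12.26, 12.35, 11.35 and 11.34 at the anastomosis. Its pair differences of 0.75 to 0.95 gave a rise of 0.87 ± 0.23 (adjusted p = 0.0177), which did not pass without replicate 2, 3 or 4. ANGPTL4, which blocks lipoprotein lipase and is made by fat cells, differed by -0.62 ± 0.61 at the anastomosis on day 5, and its day 14 downstream values ran from 9.16 to 13.62.

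**Figure D4:**
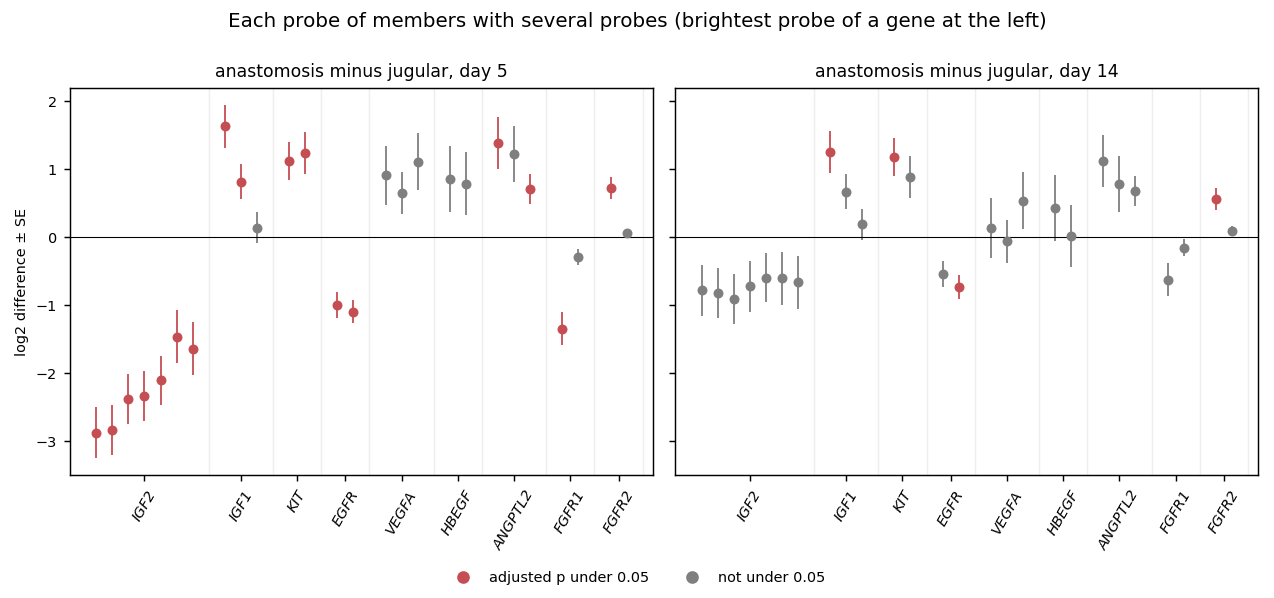
Log2 difference (y axis, with SE bars) of every tested probe of 9 members with several probes, at the anastomosis against the jugular vein on day 5 (left) and day 14 (right), brightest probe at the left within a gene. All 7 IGF2 probes passed on day 5 and none on day 14, while the probes of FGFR1, FGFR2 and IGF1 differ in size.

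Markers of cell types moved with the same comparison. On day 5 at the anastomosis, 3 of 3 macrophage markers and 3 of 3 markers of dividing cells rose (medians 1.43 and 3.3), and 3 of 4 smooth muscle markers fell (median -2.34), while 1 of 4 endothelial markers rose (median -0.13). Of 4 skeletal muscle markers ACTA1 and CKM fell, by 2.03 and 1.08. In the downstream vein on day 5, 2 of 3 macrophage markers and 3 of 3 markers of dividing cells rose, 1 of 4 endothelial markers rose and 2 of 4 smooth muscle markers fell. In the day 14 anastomosis 2 of 3 macrophage markers rose. The mean macrophage marker level was 11.63 to 11.94 in the day 5 controls and 13.37 to 13.59 at the anastomosis. For smooth muscle markers it was 16.74 to 17.31 and 13.98 to 15.71. The part of these shifts in the members' differences was not tested. In tissue RNA, fewer cells of a type and less RNA per cell cannot be told apart.

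Compared by role at the anastomosis on day 5, the median difference was 0.28 for the 11 ligands, 0.34 for the 8 receptors and -0.23 for the 7 binding proteins, beside 0.01 over all probes. The last became 0.31 with median centring. Of the ligands 3 rose and 2 fell, of the receptors 3 rose and 2 fell, and of the binding proteins 1 rose. That is 45.5%, 62.5% and 14.3% of each role, beside 20% of all probes called (9.75% higher and 10.3% lower). Downstream on day 5 the medians were 0.18, 0.16 and -0.06 (0.6 with median centring). On day 14 they were 0.26, 0.05 and 0.28 at the anastomosis and 0.14, 0.17 and -0.01 downstream (0.81 with median centring).

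Between anastomosis and downstream vein, which were in the same dye, 0 members passed on day 5 or day 14, as did 0 of all probes. At an unadjusted p under 0.05 there were 8 members on day 5 and 9 on day 14, which is 25% and 28.1% of the members beside 10.2% and 14.2% of all probes. On day 5 the 4 anastomosis samples lay below all downstream samples for ANGPTL1 (-1.71 ± 0.45), FGFR1 (-0.73 ± 0.24) and EGFR (-0.35 ± 0.19) and above them for FGFR2 (0.59 ± 0.16), beside 2.11% of all probes without overlap. No member's samples lay apart in this way on day 14 (1.87% of all probes). The adjusted p was 0.413 for ANGPTL1, FGFR1 and FGFR2 and 0.539 for EGFR. Between the days, 0 members passed within the jugular vein, the anastomosis or the downstream vein, beside 0%, 0.00553% (0.00277% higher and 0.00277% lower) and 0% of all probes. In replicates 1 to 3 the days were on separate array slides, so day and slide cannot be told apart in them. At an unadjusted p under 0.05 there were 0, 4 and 3 members, beside 1.88%, 8.7% and 4.52% of all probes. FGFR1 was 0.82 ± 0.21 higher at the anastomosis on day 14 than on day 5 (adjusted p = 0.333). It alone among the members did not overlap between the days there, beside 4.85% of all probes, and 0 members lay apart between the days in the jugular vein (1.18%) or downstream (2.36%). For the change of the difference from the control between days, which a constant dye shift leaves untouched, 0 members and 0 probes passed. At an unadjusted p under 0.05 there were 5 members at the anastomosis and 7 downstream, which is 15.6% and 21.9% of the members beside 8.71% and 7.61% of all probes. In the authors' deposited values 4 members passed between the days at the anastomosis, namely IGF2 (2.38), ANGPTL1 (1.21) and FGFR1 (0.83), higher on day 14, and AREG, lower (-3.14). The share of all probes called there is not given. Replicate 4 of those values did not correlate best with its own scanner channels.

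Partners of these pathways were taken from a list of 60 coreceptors, further ligands, adaptors, signalling proteins and targets, of which 21 were named on the array and tested. At the anastomosis on day 5, 6 of the 21 rose and 3 fell, beside 20% of all probes called. KDR, the main VEGF receptor of endothelium, rose by 2.13 ± 0.33 (adjusted p = 0.000973), with pair differences of 2.02 to 2.25, and it rose in the other comparisons with the control as well (1.7, 1.68 and 1.72). Among the others that rose, the VEGF coreceptor NRP1 rose by 0.61 ± 0.2, the heparan sulphate carrier SDC2 by 1.16 ± 0.3, the FGF-induced factor ETV5 by 0.97 ± 0.24 and the ubiquitin ligase CBL by 0.37 ± 0.12. The glypican GPC3 fell by 2.71 ± 0.43, the early growth response factor EGR1 by 2.2 ± 0.45 and the insulin and IGF receptor substrate IRS1 by 0.88 ± 0.2 (adjusted p from 0.00104 to 0.00704). Downstream on day 5, 1 rose and 3 fell (8.37% of all probes called). On day 14, 2 rose and 1 fell at the anastomosis (8.87%), and 1 rose downstream (0.913%).

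A further 12 symbols of these name patterns were reached only through a reference table of accessions or an older annotation of the array, and 11 of them were tested. Keratinocyte growth factor (FGF7), a mesenchymal ligand of the epithelial form of FGFR2, stood at 10.3, 10, 10.28 and 9.97 in the day 5 controls and at 10.95, 11.09, 10.77 and 11.43 at the anastomosis. The groups did not overlap on day 5, where FGF7 rose by 0.92 ± 0.3 (adjusted p = 0.0418). On day 14 they overlapped, with controls at 7.56, 9.99, 9.36 and 9.12 and the anastomosis at 9.21, 10.25, 10.72 and 10.08. The day 14 rise was 1.06 ± 0.3 (adjusted p = 0.0414). FGFR1OP, a centrosomal protein that is no growth factor receptor, rose by 0.38 ± 0.13 on day 5 (adjusted p = 0.0479). PDGFC, the PDGF ligand reached in this way, differed by -0.36 ± 0.2 at the anastomosis on day 5 and by 0.26 ± 0.2 on day 14 (adjusted p = 0.246 and 0.472). IGF2R, the receptor that clears IGF2, differed by 0.24 ± 0.09 on day 5, with all 4 anastomosis samples above all controls (adjusted p = 0.0842).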

How the data were processed

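The authors deposited 1 scanner file per sample; its intensity values, per the file headers, are the mean and local background signals of each spot and channel from Agilent Feature Extraction 10.5.1.1, together with processed intensities. They also deposited a table of log2 values; how these were made was not given in the sources used here. Per the labels, total RNA came from Qiagen's RNeasy Micro kit and dyes were added by Agilent's Quick Amp protocol for 2 colours. Signals were corrected with normexp (offset 50), loess and Aquantile in limma 3.58.1 with R 4.3.3. Outlier spots were left out, the channel of each sample was used, and spots of a probe were averaged.

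The 36140 probes well above background in at least 4 of 24 samples were tested with lmFit and eBayes, adjusted by Benjamini-Hochberg, with a threshold of 0.05. Sites and their changes were fitted on all 24 samples with replicate number within day as a block (8 blocks of 3, 12 residual degrees of freedom), days in the 8 samples of a site. Jugular and anastomosis sample of a number and day share an array. Their deviations from the group means correlated at 0.215 to 0.812, and those of samples on different arrays at 0.174 to 0.751, all 24 pairs above 0.1. Samples of the same number and site on the other day correlated at 0.0741 to 0.627, with 11 of 12 pairs above 0.1. Likeness by number was thus also seen across days. Without the replicate block the counts of members were 8, 2, 1 and 0 in place of 16, 7, 7 and 1 (share of all probes not given). Per the file headers, the image-analysis protocol version differs between replicates 1 and 2 and replicates 3 and 4. The fit was tested on simulated data. Per-sample values are given for members that passed, by size, and for textbook ligand and receptor pairs; other members by differences and ranges. Members and lists were chosen with earlier results of these data known. The members are named by the array design. The 9223 probes counted as carrying a symbol also include names from a reference table of genes and an older annotation of the array. No genome was used. Values of some genes are not reported here.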

Additional observations from a re-analysis of the deposited data

Results flagged for a closer look

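Among 138 groups of 4 samples of 23 members, 3 had a sample far from the rest by Dixon's test, where chance gives about 1 in 20. These 3 are fewer than the 6.9 groups expected by chance. HBEGF stood at 14.16 in jugular replicate 2 of day 14, against 11.11 to 11.5 in the other controls, and at 10.87 in anastomosis replicate 3 of day 14, against 12.71 to 13.06. FGFR2 stood at 8.02 in the same anastomosis sample, against 7.37 to 7.38. Both samples are among the 4 with high adipocyte markers (14.44 and 13.98), whose part in these values was not tested.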

How the results depend on the processing

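The directions of the 31 values that passed stayed the same under all alternatives run. Each alternative refits the samples that gave these values, or part of them, so unchanged directions are no separate support. Of these values 31 passed with no background correction, 28 with processed signals, 28 with median centring, 30 with single-channel quantiles, 29 with no filter, 31 with slide as block and 28 in the authors' deposited table. Only the samples compared gave 23, replicates 3 and 4 alone 21, and leaving out the 4 day 14 samples high in adipocyte markers, chosen after seeing the data, 27. Slide as a random block for the days was not run because it could not be fitted.

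Many calls depended on the pairing of samples by number. The share of all probes called without this pairing is not given, so a drop over the whole array cannot be told from one in these members. With no replicate block 11 of the 31 values passed, and the counts of members at the anastomosis and downstream were 8 and 2 on day 5 and 1 and 0 on day 14. With the replicate block in the day comparisons the counts were 0, 0 and 0. Replicates 1 and 2 alone gave 0 members in each of the 4 comparisons with the control.

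Leaving out single replicates gave 11 to 13 members at the anastomosis on day 5, 0 to 10 downstream on day 5, 0 to 5 at the anastomosis on day 14 and 0 to 1 downstream on day 14. Downstream on day 5 the count was 11 with single-channel quantiles, 14 with only the samples compared and 13 in the authors' deposited table. For the anastomosis on day 14 it was 13 with median centring, where 45% of all probes were called, and 0 with only the samples compared. Downstream on day 14 it was 2 with no background correction, 9 with median centring (23.4% of all probes), 0 with only the samples compared, 2 in the authors' deposited table, 3 in replicates 3 and 4 alone and 0 without the samples high in adipocyte markers. The authors' deposited table gave 4 members between the days at the anastomosis and 1 for the change there. The causes were not tested. Where no share of all probes stands beside a count, a change over the whole array and one in these members cannot be told apart.

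At the anastomosis on day 5 the ligand median was 0.72 with processed signals. The receptor median was 0.52 with processed signals, 0.53 with median centring, 0.73 in the authors' deposited table, 0.21 in replicates 1 and 2 alone and 0.23 to 0.37 with single replicates left out. The binding protein median was -0.63, 0.31 and -0.56 under the first 3 of these and -0.4 to -0.22 with single replicates left out. Downstream on day 5 the receptor median was 0.47 with processed signals, the binding protein median 0.6 with median centring, and the ligand and binding protein medians 0.51 and 0.16 in replicates 1 and 2 alone. At the anastomosis on day 14 the receptor median was 0.35 and the binding protein median 0.9 with median centring, and the receptor median 0.41 in replicates 3 and 4 alone. Downstream on day 14 the receptor median was 0.22 with no background correction, 0.4 with processed signals, 0.29 in the authors' deposited table, 0.25 in replicates 1 and 2, 0.09 in replicates 3 and 4, 0.23 without the samples high in adipocyte markers and 0.09 to 0.2 with single replicates left out. The binding protein median was 0.81 with median centring. Between anastomosis and downstream vein on day 5 the authors' deposited table gave 0.11 for ligands and 0.38 for receptors, and processed signals -0.46 for binding proteins. On day 14 the ligand median was 0.17 without the samples high in adipocyte markers, and the binding protein median 0.43 without them, 0.12 in the authors' deposited table and -0.17 to 0.27 with single replicates left out.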

Other observations

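The green channel of the 8 downstream arrays carries no sample in the labels. It correlated at 0.937 to 0.98 with the jugular control of the same number and day, and the levels of the 32 tested members differed from that control by a median of 0.08 and at most 0.46.

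Within the day 5 differences at the anastomosis, replicates 1 and 2 and replicates 3 and 4 gave the same direction for all 16 members that passed. These members were called in a fit that holds both pairs of replicates, so the same direction is no separate support. The sizes were 3.62 and 1.68 for AREG, 1.67 and 0.58 for KIT, 1.14 and 2.11 for IGF1, and -1.33 and -1.34 for FGFR1. The difference between the pairs of replicates was not tested.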
